A study of Mus musculus with 12 samples.

Results

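The cornified envelope genes are the genes of the protein shell that replaces the membrane of dying keratinocytes at the skin surface. Members were chosen by symbol, as every row of the count file whose name begins with Sprr or with Lce and a digit, together with Ivl, Lor, Flg, Flg2, Hrnr, Rptn, Crnn, Kprp, Crct1, Casp14, Tgm1, Cdsn and Asprv1. Of the 55453 genes in the file, 51 matched and 49 had the 10 counts in total that were required. Sprr2a2 with 9 counts and Sprr2c-ps with 0 fell outside, and Sprr3 with 30 counts was the member with the fewest. The expression filter, which was run over all genes and keeps a gene that is high in only 1 group, left 48 members among 18311 tested genes. Sprr3 was not tested.

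RNA-Seq of whole skin from 12 mice was used. Mice 159, 160 and 161 were WT and received PBS (WT PBS), and mice 145, 146 and 147 were WT and received bleomycin (WT BLM). Of the mice lacking Thy-1, a surface protein of fibroblasts and other cells, mice 136, 137 and 139 received PBS (KO PBS) and mice 141, 143 and 144 bleomycin (KO BLM), so that every group had 3 mice. All carry the strain label C57/BL6. The methods name female Thy-1–KO mice of 8 to 12 weeks and C57BL/6J mice as WT, give no age for WT mice, and also call all control mice littermates. Bleomycin, a cytostatic agent that causes local scarring, was injected s.c. on the back at a daily 10 mg/kg. Injections ran for up to 14 days by the methods and for 21 days by the series design, and skin was harvested on day 21. Thy-1–KO mice had been backcrossed to C57BL/6 for at least 10 generations. Values below are listed in the mouse order given here.

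In the upper epidermis, keratinocytes stop dividing, fill with keratin and filaggrin, and build a cornified envelope under the cell membrane. Transglutaminases crosslink involucrin, loricrin, the small proline-rich (SPRR) proteins and the late cornified envelope (LCE) proteins into this envelope. Proteases such as caspase-14 and the aspartic protease encoded by Asprv1 process filaggrin. Loricrin and most Lce1 genes belong to normal skin that renews itself, whereas several Sprr2, Sprr1 and Lce3 genes are known as genes of wounded, inflamed or barrier-impaired epidermis. Corneodesmosin (Cdsn) holds the dead cells together until they are shed.

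By GENCODE M21 (GRCm38), 45 of the 49 members lie on chromosome 3 within chr3:92080271-93399442, a stretch of 1319 kb known as the epidermal differentiation complex. The other 4 are Asprv1 (chr6:86628164-86629710), Casp14 (chr10:78711991-78718294), Tgm1 (chr14:55700009-55713926) and Cdsn (chr17:35552128-35557180). The families arose from copies of each other, so their sequences set how well reads can be told apart. Over their coding sequences, the 6 Lce3 genes were 94.3% to 99.3% identical, the 14 Lce1 genes 43.6% to 95.7%, and the 12 Sprr2 genes with a coding sequence (Sprr2a2 included) 53.7% to 100%. Counted in stretches of 50 bases of their transcripts, 20 of the 49 members shared none with another gene and 22 shared over 10%. Sprr2a1 and Sprr2a3 shared 96.3% and 61.1% and were the only members over 50%.

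The coding sequences of the Sprr2a copies and of Sprr2d are shown because this family had the highest median response to bleomycin. Sprr2a1 differs from Sprr2a2 at 0 of 252 bases and from Sprr2a3 at 3, which are in capitals in the lines for these genes. In Sprr2d the capitals mark the 4 copies of GAGCCTTGT, part of the repeat that gives the proteins their proline-rich body. Other Sprr2 members hold from 1 to 6 copies, with 6 in Sprr2h.
Sprr2a1, gene at chr3:92215799-92221911, plus strand: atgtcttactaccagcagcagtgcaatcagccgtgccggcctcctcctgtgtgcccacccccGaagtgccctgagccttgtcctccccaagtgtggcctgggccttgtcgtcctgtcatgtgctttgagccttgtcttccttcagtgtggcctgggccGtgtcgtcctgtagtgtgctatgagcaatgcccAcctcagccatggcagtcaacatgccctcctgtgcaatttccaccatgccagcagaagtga
Sprr2a3, gene at chr3:92285417-92291405, plus strand: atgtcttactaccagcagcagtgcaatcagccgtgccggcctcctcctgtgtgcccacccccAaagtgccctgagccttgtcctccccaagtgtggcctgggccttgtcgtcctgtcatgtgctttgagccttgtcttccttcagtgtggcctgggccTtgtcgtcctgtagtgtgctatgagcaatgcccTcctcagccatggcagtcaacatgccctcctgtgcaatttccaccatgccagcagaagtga
Sprr2d, gene at chr3:92339140-92340873, plus strand: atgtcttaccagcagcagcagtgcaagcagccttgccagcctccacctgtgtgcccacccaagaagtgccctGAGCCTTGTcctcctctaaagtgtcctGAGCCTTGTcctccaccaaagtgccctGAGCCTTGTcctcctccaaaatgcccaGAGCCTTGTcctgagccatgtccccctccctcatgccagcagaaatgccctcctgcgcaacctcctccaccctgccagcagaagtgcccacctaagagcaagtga

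The 100 bases before the start of transcription are shown for members of the Sprr2, Lce1 and Lce3 families, which hold 22 of the 26 members called in WT mice, and for Flg and Crnn. They come from RefSeq (GRCm38.p6), where 44 of the 49 members matched. Capitals mark, on the gene's strand, TATAAA in Sprr2 genes, Flg and Crnn and ATAAAAG in Lce genes. They also mark, on either strand, CTATCAG in Sprr2, TGTCTCAC in Lce1, GCATGCTT in Lce3 and TGANTCA (a form of the AP-1 site) in Crnn. TATAAA and ATAAAAG overlap where TATAAAAG is present, as in Crnn. The motifs were chosen after the promoters had been read, so their counts are descriptions of these letters and not sites.
Sprr2d, chr3:92339040-92339139, plus strand: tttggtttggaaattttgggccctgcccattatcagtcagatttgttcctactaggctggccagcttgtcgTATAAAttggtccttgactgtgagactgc
Sprr2e, chr3:92352043-92352142, plus strand: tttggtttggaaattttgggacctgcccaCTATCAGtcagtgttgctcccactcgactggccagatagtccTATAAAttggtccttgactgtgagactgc
Sprr2i, chr3:92407891-92407990, plus strand: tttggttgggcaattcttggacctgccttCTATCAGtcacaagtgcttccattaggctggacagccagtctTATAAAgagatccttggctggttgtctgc
Lce1g, chr3:92752339-92752438, minus strand: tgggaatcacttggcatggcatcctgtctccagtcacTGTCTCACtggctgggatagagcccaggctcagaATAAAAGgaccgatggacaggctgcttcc
Lce1h, chr3:92765066-92765165, minus strand: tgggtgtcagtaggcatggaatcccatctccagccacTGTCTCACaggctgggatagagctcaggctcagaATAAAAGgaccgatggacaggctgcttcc
Lce1m, chr3:93019062-93019161, minus strand: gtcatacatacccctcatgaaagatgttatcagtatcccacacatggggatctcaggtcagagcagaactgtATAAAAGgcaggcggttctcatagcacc
Lce3d, chr3:92957290-92957389, plus strand: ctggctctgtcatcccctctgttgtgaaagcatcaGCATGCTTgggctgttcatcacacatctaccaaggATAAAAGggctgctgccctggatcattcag
Lce3e, chr3:92966961-92967060, plus strand: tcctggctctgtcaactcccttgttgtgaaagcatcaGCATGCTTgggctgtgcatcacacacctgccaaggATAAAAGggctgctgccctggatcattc
Lce3f, chr3:92992117-92992216, plus strand: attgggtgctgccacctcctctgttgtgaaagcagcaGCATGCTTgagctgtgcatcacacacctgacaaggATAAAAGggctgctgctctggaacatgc
Flg, chr3:93273446-93273545, plus strand: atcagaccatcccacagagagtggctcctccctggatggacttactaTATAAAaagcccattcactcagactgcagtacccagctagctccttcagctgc
Crnn, chr3:93144689-93144788, plus strand: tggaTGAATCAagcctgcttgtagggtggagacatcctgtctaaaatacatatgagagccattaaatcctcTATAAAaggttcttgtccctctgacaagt

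TATAAA was in 7 of 9 Sprr2 promoters (77.8%), against 3.8% of all 32851 promoters over the same 100 bases. ATAAAAG was in 10 of 13 Lce1 promoters (76.9%) and 5 of 6 Lce3 promoters (83.3%), against 1.63% of all. TGTCTCAC was in 10 of 13 Lce1 promoters and in 0.362% of all. Of the promoters without it, those of Lce1m, which was not called in WT mice, and of Lce1c, which was (1.72 ± 0.57 (SE), adjusted p = 0.0415), are examples. GCATGCTT was in 4 of 6 Lce3 promoters (66.7%) and 0.225% of all, CTATCAG in 3 of 9 Sprr2 promoters (33.3%) and 0.7% of all, and TGANTCA in 3 of 5 promoters of the S100-fused genes (60%, Crnn among them and Flg not) and 2.73% of all.

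Library totals ran from 26473700 to 38890450 counts, and a gene typically varied between mice of a group by 34.9% beyond counting error. The counts were scaled by TMM, and levels are given as CPM, the counts of a gene relative to its scaled library total. Thy1 was counted at 45.6 to 128 CPM in KO mice and at 104 to 416 CPM in WT mice, without overlap within PBS or within bleomycin, and was not called in either comparison by edgeR (adjusted p = 0.224 and 0.112). The counts do not show which part of the gene the reads in KO mice came from. A list of 27 growing hair genes, 26 of them tested, set mice apart within groups. Its summed level was 50590.2 to 72978 CPM (WT PBS), 76.9 to 870.0 CPM (WT BLM), 63.6 to 80374 CPM (KO PBS) and 3727 to 38506 CPM (KO BLM), and KO PBS mouse 136 and KO BLM mouse 141 lay with or near the WT PBS mice. In WT mice bleomycin and the hair level cannot be told apart, and the part of hair in the results below was not tested beyond the values given. Basal (10 genes) and suprabasal (11 genes) keratinocyte markers were all counted in the skin, with a mean log2 CPM of 8.55 to 9.47 and 8.25 to 10.27. Markers of macrophages (7 of 8), skeletal muscle (5 of 6) and fibroblasts (3 of 5) rose in WT BLM mice and 3 of 5 sebaceous gland markers fell, where 19.8% of all genes rose and 14.1% fell. None of these was called in KO mice, where 0.306% of all genes were. Their part in the members' values was not tested. In whole skin, fewer cells of a type and less RNA per cell cannot be told apart.

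The first comparison asked how the members responded to bleomycin in WT skin. Of the 48 tested members 26 (54.2%) rose in WT BLM mice, and 0 fell, by edgeR's quasi-likelihood test with Benjamini-Hochberg adjustment over all genes at 0.05, from which all adjusted p values below come unless another tool is named. Over all genes 34.0% were called, 19.8% higher and 14.1% lower. The median log2 fold change of the members was 2.24, against 0.018 over all genes. The members' median was 1.40 without WT BLM mouse 147, 1.12 with the Sprr2, Lce1 and Lce3 families each summed, and -0.038 with the hair level as a covariate. The groups did not overlap for 23 members that were higher and 3 that were lower, against 28.3% and 28.7% of all genes. The 26 were 7 of 11 Sprr2, 13 of 14 Lce1, 2 of 6 Lce3, Lce6a, Flg, Hrnr and Kprp. No Sprr1 or Sprr4 gene and none of the 4 genes for enzymes and adhesion was among them. The count fell to 3 without WT PBS mouse 159 or 160, 7 without WT BLM mouse 147, and 11 without WT PBS mouse 161 or WT BLM mouse 145. It was 0 with the hair level as a covariate, where 13 of all genes were called. For the fits with a mouse left out the share of all genes called is not given here, so their counts cannot be set against it.

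**Figure D1:**
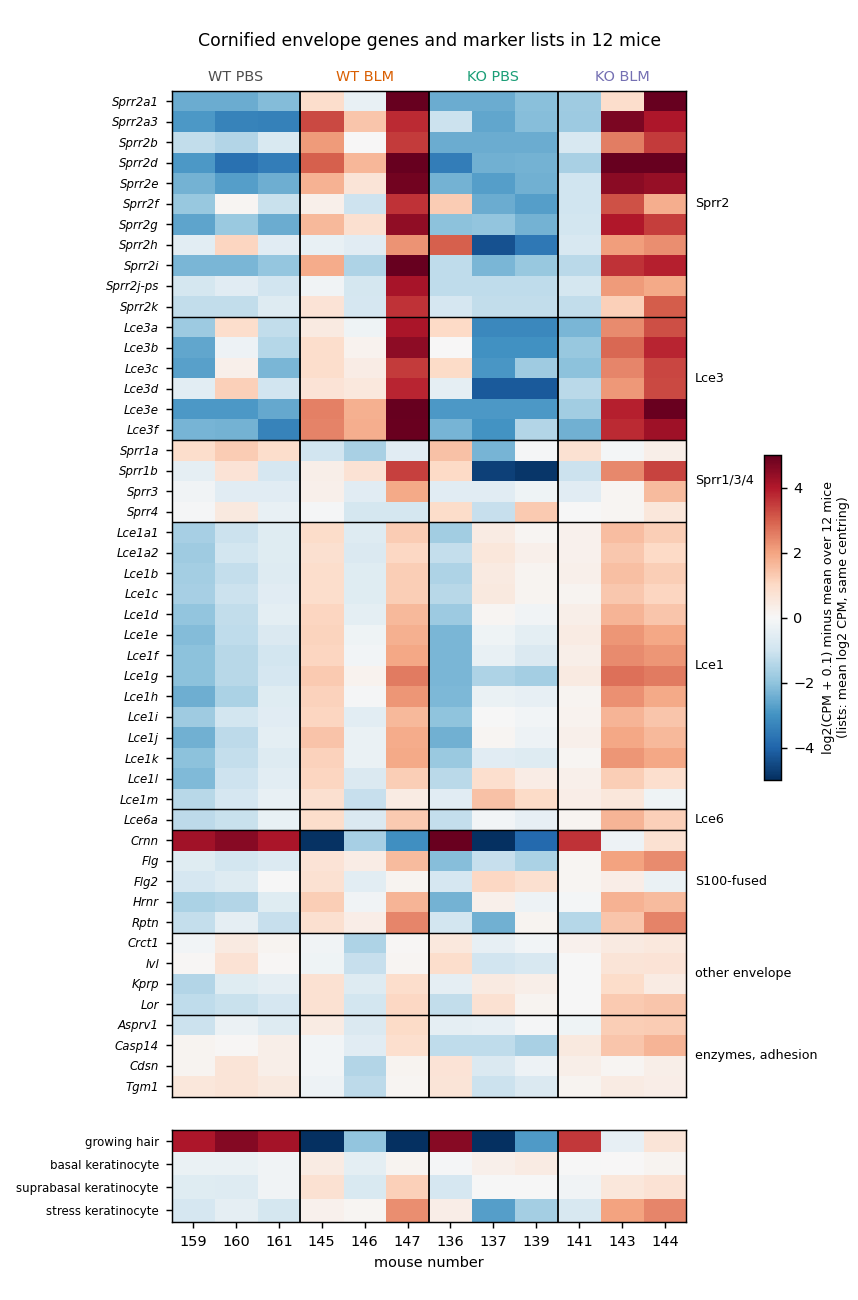
Each row is a member and each column a mouse, and colour gives log2(CPM + 0.1) minus the gene's mean over the 12 mice, cut at 5 in both directions, with the mean log2 CPM of 4 marker lists centred in the same way below. The Sprr2 and Lce3 rows are high in WT BLM mouse 147 and KO BLM mice 143 and 144, whereas the Crnn row follows the growing hair row.

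The same question was asked in Thy-1–KO mice, where 2 of 48 members rose with bleomycin, Casp14 and Flg, and 0.306% of all genes were called, 0.251% higher. The median log2 fold change was 2.33 over the members and -0.007 over all genes, and with the 3 families summed the members' median was 0.92. At an unadjusted p under 0.05 there were 27 members, all higher, against 20.0% of all genes, or 11.6% higher. The KO groups did not overlap for 18 members, each higher in KO BLM, against 10.8% of all genes. The members called were 15 without KO PBS mouse 136, 13 without KO BLM mouse 141, 25 without both and 17 with DESeq2, and 0 without KO PBS mouse 137 or 139, KO BLM mouse 143 or 144, or any WT PBS mouse, or WT BLM mouse 145. Without WT BLM mouse 146 or 147 Casp14 alone was called. With the hair level as a covariate the count was 27. The share of all genes called in these alternative fits is not given here, so the counts are no result about the members alone.

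The responses of both genotypes were then compared with each other. No member passed the test of the difference (0 of 48, smallest adjusted p = 0.0702 for Casp14), 0.00% of all genes did, and an unadjusted p under 0.05 was found for 3 members and for 31.1% of all genes. Without KO PBS mouse 136, 9 members were called, 7 with a higher response in KO mice (Crnn, Sprr1a, Sprr1b, Sprr2h, Ivl, Tgm1 and Casp14) and 2 with a lower one (Flg2 and Lce1m), but 39.9% of all genes were called as well. DESeq2 called Casp14 only.

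**Figure D2:**
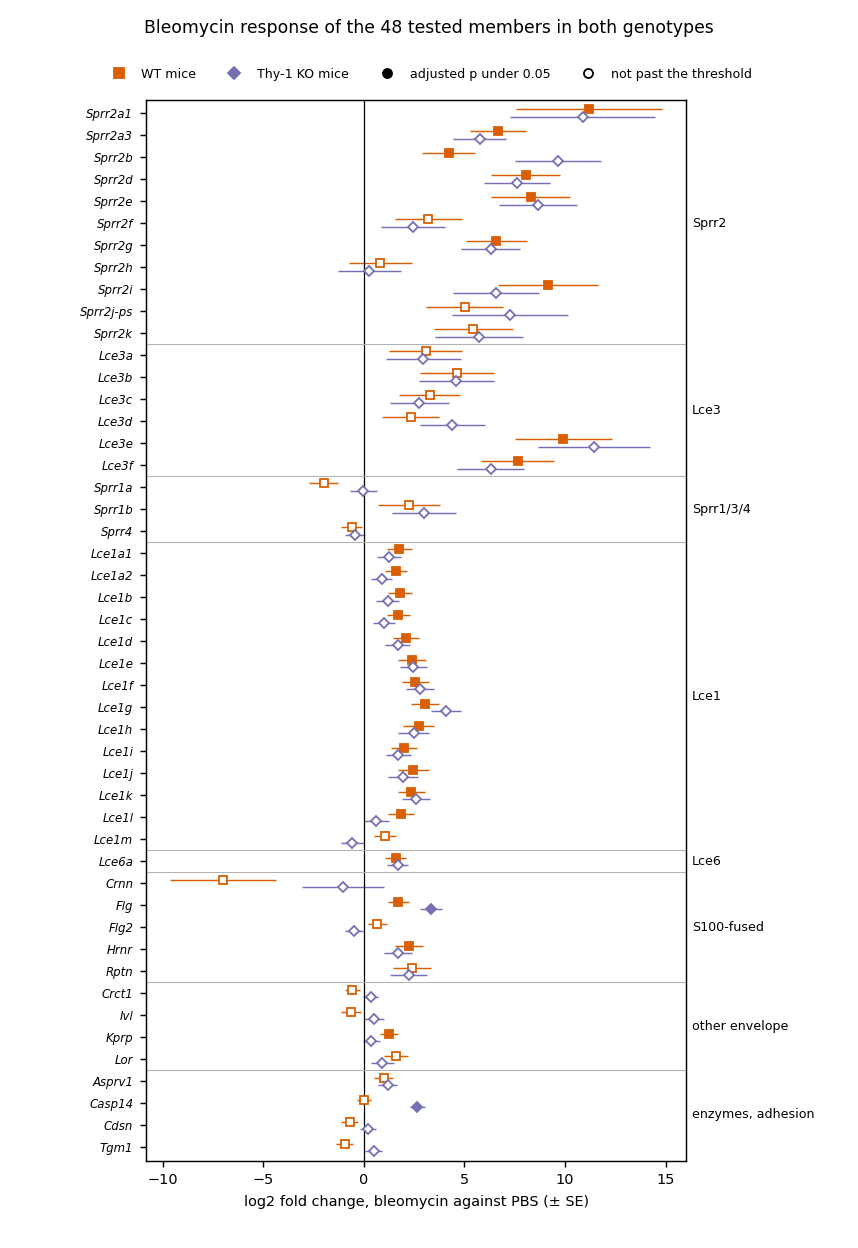
Log2 fold changes of bleomycin against PBS (x axis, ± SE) for the 48 tested members by family, in WT mice (squares) and Thy-1–KO mice (diamonds), filled where the adjusted p is under 0.05. The fitted Sprr2 and Lce3 values reach 11.19 in WT and 11.45 in KO mice, both for genes with 0 or 1 count in the PBS group, the Lce1 values in WT mice lie between 1.05 and 3.03, and the filled KO symbols are Flg and Casp14.

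The Sprr2 genes, whose small proline-rich proteins are crosslinked into the envelope of stressed keratinocytes, had the highest median log2 fold change of the families, 6.58 in WT and 6.59 in KO mice, with Sprr2h at 0.82 and 0.27. Sprr2d (chr3:92339140-92340873) was at 0.203, 0.0658 and 0.102 CPM in WT PBS mice and 17.2, 6.85 and 75.5 CPM in WT BLM mice. It was at 0.0997, 0.314 and 0.328 CPM in KO PBS mice and 0.612, 73.3 and 77.9 CPM in KO BLM mice. PBS skin of both genotypes had next to none, the WT and KO groups did not overlap with their controls, and KO BLM mouse 141 lay far under the other bleomycin mice. Its log2 fold change was 8.04 ± 1.73 (SE), adjusted p = 0.0101 in WT mice and 7.63 ± 1.64 (SE), adjusted p = 0.0795 in KO mice. Sprr2d and Sprr2a3 were called whichever of the 6 WT mice was left out, Sprr2e and Sprr2g in 5 of these 6 fits, Lce1g and Lce3f in 4, and every other member in fewer.

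Sprr2a3 (chr3:92285417-92291405), the copy of which a larger part is its own, was at 0.406, 0.263 and 0.255 CPM in WT PBS mice and 36.2, 9.55 and 48.3 CPM in WT BLM mice. In KO mice it was at 1.66, 0.514 and 0.745 CPM in KO PBS mice and 0.949, 95.7 and 61 CPM in KO BLM mice. WT BLM mice and KO BLM mice 143 and 144 were high, and KO BLM mouse 141 fell within the range of the KO PBS mice. Sprr2a3 had a log2 fold change of 6.66 ± 1.41 (SE), adjusted p = 0.00971 in WT and 5.76 ± 1.31 (SE), adjusted p = 0.0897 in KO mice.

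Sprr2a1 (chr3:92215799-92221911) was uneven among the bleomycin mice, with 0, 0 and 1 counts in WT PBS mice and 24, 10 and 2949 counts in WT BLM mice. It had 0, 0 and 1 counts in KO PBS mice and 2, 30 and 2227 counts in KO BLM mice. The reads sat in 1 mouse of each bleomycin group, 147 and 144, whereas Sprr2a3 was high in other bleomycin mice too. Since these copies share most of their stretches of 50 bases, single values of either copy are uncertain. Sprr2a1 was called in WT mice (adjusted p = 0.0382), with a ratio of WT BLM to WT PBS counts per library size of 3415 (95% interval 612 to 134911) that covers counting error only. Summed over Sprr2a1, Sprr2a2 and Sprr2a3, a sum chosen after seeing the data, the level was 0.406, 0.263 and 0.280 CPM (WT PBS), 37.2, 9.94 and 145 CPM (WT BLM), 1.66, 0.514 and 0.775 CPM (KO PBS) and 1.01, 96.8 and 139.7 CPM (KO BLM). The sum rose in WT mice (log2 fold change 7.65 ± 1.68 (SE), edgeR adjusted p = 0.0108) and was at 6.34 ± 1.54 (SE) in KO mice (adjusted p = 0.102).

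Sprr2e was at 0.0338, 0 and 0.0255 CPM in WT PBS mice and 2.19, 0.978 and 19.3 CPM in WT BLM mice. In KO skin it was at 0.0332, 0 and 0.0298 CPM in KO PBS mice and 0.245, 15.5 and 13.7 CPM in KO BLM mice. It rose in WT mice (adjusted p = 0.0133), with a ratio of 386 (95% interval 107 to 3196) against 2 counts in WT PBS, and had adjusted p = 0.0897 in KO mice, with a ratio of 475 (95% interval 131 to 3925). Its promoter, printed above, holds TATAAA and CTATCAG. Sprr2g, which GENCODE lists as a polymorphic pseudogene, was at 0.0338, 0.132 and 0.0509 CPM in WT PBS mice and 2.43, 1.34 and 17.7 CPM in WT BLM mice. Its values were 0.0997, 0.114 and 0.0596 CPM in KO PBS mice and 0.337, 13.2 and 9.08 CPM in KO BLM mice. The bleomycin mice were above their controls in both genotypes, and the log2 fold change was 6.58 ± 1.52 (SE), adjusted p = 0.0126 in WT and 6.31 ± 1.47 (SE), adjusted p = 0.0957 in KO mice.

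Sprr2b was at 0.135, 0.0987 and 0.229 CPM in WT PBS mice and 2.31, 0.456 and 6.20 CPM in WT BLM mice. It was not counted in any KO PBS mouse and was at 0.214, 3.16 and 6.22 CPM in KO BLM mice. Neither pair of groups overlapped. The log2 fold change in WT mice was 4.21 ± 1.30 (SE), adjusted p = 0.0389, and KO BLM was at least 101-fold higher than KO PBS when 3 counts were allowed over the KO PBS group (adjusted p = 0.0972). Sprr2i was at 0, 0 and 0.0255 CPM in WT PBS mice and 1.64, 0.0652 and 22 CPM in WT BLM mice. Among KO mice it was at 0.0997, 0 and 0.0298 CPM in KO PBS mice and 0.0918, 5.83 and 7.07 CPM in KO BLM mice. WT BLM mouse 147 was far above the other WT BLM mice, and the gene rose in WT mice (adjusted p = 0.0220) with a ratio of 819.6 (95% interval 147 to 32416) against 1 count in WT PBS.

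Sprr2h, the member of the family with the most copies of the repeat, did not share this pattern. It was at 12.7, 38.7 and 12.4 CPM in WT PBS mice and 14.1, 12.4 and 86.1 CPM in WT BLM mice. It was at 147, 0.800 and 1.46 CPM in KO PBS mice and 10.5, 78.2 and 90.9 CPM in KO BLM mice. KO PBS mouse 136 was the highest of all 12 mice and KO PBS mice 137 and 139 the lowest, and all groups overlapped. Sprr2h had a log2 fold change of 0.82 ± 1.57 (SE), adjusted p = 0.702 in WT and 0.27 ± 1.55 (SE), adjusted p = 0.941 in KO mice. Without KO PBS mouse 136 the KO value was 5.72 (adjusted p = 0.0276) and the difference between KO PBS and WT PBS turned from 1.23 to -4.23 (adjusted p = 0.0279). The adjusted p of these ran from 0.0127 to 1 over 21 alternatives and from 0.0140 to 0.999 over 21 alternatives. Sprr2f (adjusted p = 0.151), Sprr2k (adjusted p = 0.0543) and Sprr2j-ps (adjusted p = 0.0709) were not called in WT mice, at log2 fold changes of 3.21, 5.44 and 5.01. Sprr2j-ps is a pseudogene by its name, but GENCODE lists it as protein coding. Sprr2h carried much of the family's counts in PBS skin, so the family sum gave another picture: 13.7, 40.1 and 13.5 CPM (WT PBS), 78.4, 32.3 and 389 CPM (WT BLM), 151, 1.80 and 2.71 CPM (KO PBS) and 13.4, 295 and 350.2 CPM (KO BLM). That sum was not called in WT mice (log2 fold change 2.90 ± 1.67 (SE), adjusted p = 0.194).

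**Figure D3:**
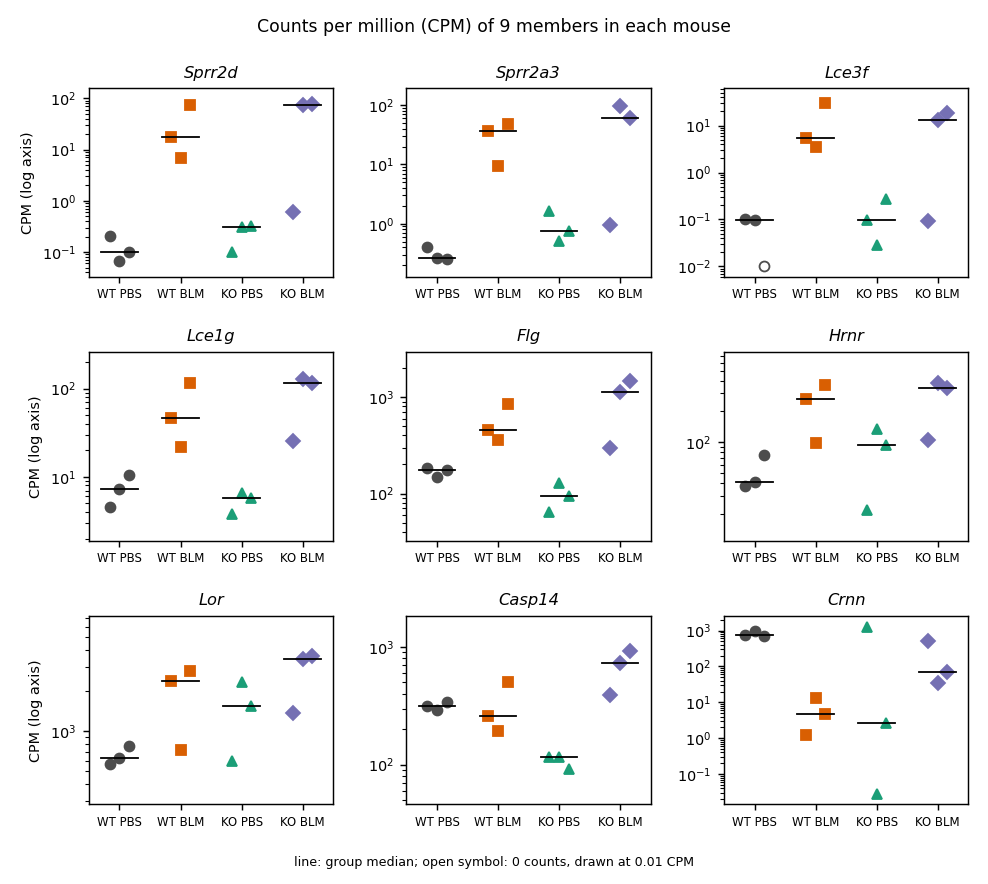
Levels of 9 members in each mouse (y axis, CPM on a log scale) by group, with a line at each group's median and open symbols for 0 counts. Sprr2d lies under 1 CPM in every PBS mouse and in KO BLM mouse 141, Casp14 lies lowest in KO PBS mice, and Crnn spans from 0.0286 to 1268 CPM within KO PBS.

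Of the remaining Sprr genes, Sprr1a and Sprr1b encode envelope proteins that are known from stressed epidermis and stratified epithelia, and Sprr4 belongs to the same family. Sprr1a had the highest level per length of all members in WT PBS skin, 2261 CPM per kb of exon, above Sprr4 (476) and Cdsn (449). It was at 1666, 2144 and 1658 CPM in WT PBS mice and 467, 290.3 and 610.4 CPM in WT BLM mice. Its KO values were 2488, 176 and 871 CPM in KO PBS mice and 1526, 838 and 1102 CPM in KO BLM mice. All WT BLM mice were under all WT PBS mice, KO PBS mice 136 and 137 were the highest and lowest of the 12, and the log2 fold change was -2.00 ± 0.71 (SE), adjusted p = 0.0512 in WT and -0.03 ± 0.68 (SE), adjusted p = 0.985 in KO mice. Without KO PBS mouse 136 the WT value was -2.00 (adjusted p = 0.0107), and DESeq2 gave -2.02 (adjusted p = 0.00908), and the adjusted p ran from 0.00259 to 0.961 over 21 alternatives.

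Sprr1b was at 22.3, 49.1 and 17.1 CPM in WT PBS mice and 36.9, 50.8 and 328 CPM in WT BLM mice. It was at 60.2, 1.09 and 0.953 CPM in KO PBS mice and 14.4, 161 and 318 CPM in KO BLM mice. KO PBS mice 137 and 139 were at about 1 CPM while KO PBS mouse 136 was among the WT mice, and the groups overlapped in both comparisons (log2 fold change 2.23, adjusted p = 0.276 in WT, 2.99, adjusted p = 0.316 in KO mice). The KO log2 fold change was 7.32 (adjusted p = 0.0237) without KO PBS mouse 136, and its adjusted p ran from 0.00961 to 0.682 over 21 alternatives. Sprr4 was at 101, 147 and 81.8 CPM in WT PBS mice and 101, 57.5 and 56.9 CPM in WT BLM mice. Its values were 197, 46.5 and 259 CPM in KO PBS mice and 105, 112 and 156 CPM in KO BLM mice. No group stood apart from its control (adjusted p = 0.358 and adjusted p = 0.646). Sprr3, known from mucosal epithelia, had 1, 0 and 0 counts in WT PBS mice and 2, 0 and 14 counts in WT BLM mice. It had 0, 0 and 1 counts in KO PBS mice and 0, 2 and 10 counts in KO BLM mice, and its reads came mostly from mice 147 and 144.

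The Lce3 genes, late cornified envelope genes known to be switched on in wounded or inflamed epidermis, split into 2 with a called response and 4 without. Lce3f (chr3:92992226-92993426) was at 0.101, 0.0987 and 0 CPM in WT PBS mice and 5.48, 3.42 and 31 CPM in WT BLM mice. It was at 0.0997, 0.0286 and 0.268 CPM in KO PBS mice and 0.0918, 13.3 and 18.8 CPM in KO BLM mice. All WT BLM mice were above the WT PBS mice, and KO BLM mouse 141 stayed within the KO PBS range. Lce3f had a log2 fold change of 7.66 ± 1.81 (SE), adjusted p = 0.0138 in WT and 6.30 ± 1.65 (SE), adjusted p = 0.119 in KO mice. Lce3e was at 0, 0 and 0.0255 CPM in WT PBS mice and 4.07, 2.45 and 34 CPM in WT BLM mice. It was not counted in KO PBS mice and was at 0.122, 10.9 and 22.3 CPM in KO BLM mice. It rose in WT mice (adjusted p = 0.0186), with a ratio of 1391 (95% interval 249 to 54977) against 1 count in WT PBS, and was at least 348-fold higher in KO BLM than in KO PBS (adjusted p = 0.118).

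Lce3c, the member of this family with the highest mean level, was at 0.507, 4.70 and 0.713 CPM in WT PBS mice and 7.24, 4.99 and 44.9 CPM in WT BLM mice. It was at 7.71, 0.429 and 1.07 CPM in KO PBS mice and 0.857, 21.5 and 39.9 CPM in KO BLM mice. Lce3d was at 1.56, 5.26 and 1.12 CPM in WT PBS mice and 3.68, 3.33 and 32.6 CPM in WT BLM mice. In KO mice it was at 1.63, 0.0286 and 0.0298 CPM in KO PBS mice and 0.826, 10.5 and 23.4 CPM in KO BLM mice. In WT PBS mouse 160 Lce3d was above WT BLM mice 145 and 146, and in KO PBS mouse 136 both genes were above KO BLM mouse 141. Their log2 fold changes in WT mice were 3.27 (adjusted p = 0.112) and 2.32 (adjusted p = 0.222), and those of Lce3a and Lce3b were 3.07 (adjusted p = 0.208) and 4.61 (adjusted p = 0.0738). In KO mice none of the 6 was called, and the 5 genes other than Lce3e, which has only a bound, had log2 fold changes of 2.76 (Lce3c) to 6.30 (Lce3f). All 6 were called in KO mice when mice 136 and 141 were both left out, with adjusted p from 0.0143 to 0.0414. The share of all genes called in that fit is not given here, so this is no result about the Lce3 genes alone. Over all alternatives the KO adjusted p of Lce3f ran from 0.00294 to 0.383 over 20 alternatives. The 6 genes share between 12.1% and 49.3% of their stretches of 50 bases, so single values are uncertain here too. Their sum was 2.37, 12.3 and 2.37 CPM (WT PBS), 23.1, 15.7 and 176 CPM (WT BLM), 11.9, 0.486 and 1.37 CPM (KO PBS) and 2.11, 66.7 and 124 CPM (KO BLM), and was not called in WT mice (log2 fold change 3.66 ± 1.58 (SE), adjusted p = 0.0928).

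The Lce1 genes encode envelope proteins of normal epidermis, and 13 of 14 rose in WT BLM mice, by log2 fold changes of 1.58 (Lce1a2) to 3.03 (Lce1g). Lce1g (chr3:92750148-92752338) was at 4.50, 7.27 and 10.6 CPM in WT PBS mice and 46.9, 21.6 and 114 CPM in WT BLM mice. In KO mice Lce1g was at 3.79, 6.51 and 5.75 CPM in KO PBS mice and 25.8, 129 and 117 CPM in KO BLM mice. Neither pair of groups overlapped, and each bleomycin group held 1 mouse, 146 or 141, well under the others. The log2 fold change was 3.03 ± 0.70 (SE), adjusted p = 0.0128 in WT and 4.08 ± 0.74 (SE), adjusted p = 0.0541 in KO mice, the smallest adjusted p of the family in both.

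Lce1h was at 2.81, 5.13 and 10.3 CPM in WT PBS mice and 35, 14.8 and 71.4 CPM in WT BLM mice. Its KO values were 3.22, 12.3 and 11.7 CPM in KO PBS mice and 17.3, 76.5 and 58.3 CPM in KO BLM mice. Lce1f was at 12, 18.9 and 26.5 CPM in WT PBS mice and 104, 45.8 and 189.6 CPM in WT BLM mice. KO mice had it at 10.2, 38.5 and 29.8 CPM in KO PBS mice and 61, 255 and 227 CPM in KO BLM mice. Both had the order of mice seen in Lce1g, and neither overlapped between PBS and bleomycin in either genotype. The WT log2 fold changes were 2.73 ± 0.78 (SE), adjusted p = 0.0254 for Lce1h and 2.56 ± 0.69 (SE), adjusted p = 0.0207 for Lce1f, and the KO values were 2.48 (adjusted p = 0.150) and 2.79 (adjusted p = 0.107).

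Lce1a1 and Lce1m had the highest mean levels of the family. Lce1a1 was at 54.9, 81.2 and 113 CPM in WT PBS mice and 323, 112 and 414 CPM in WT BLM mice. It was at 52.1, 229 and 183 CPM in KO PBS mice and 201, 505 and 408 CPM in KO BLM mice. WT BLM mouse 146 lay at the upper end of WT PBS, KO PBS mice 137 and 139 lay above KO BLM mouse 141 or near it, and the gene rose in WT mice with an adjusted p close to the threshold (log2 fold change 1.77 ± 0.61 (SE), adjusted p = 0.0464, against 1.26 ± 0.60 (SE), adjusted p = 0.267 in KO mice). Lce1m (chr3:93017810-93019060), which lies apart from the other Lce1 genes beyond the Lce3 genes, was at 101, 148 and 209 CPM in WT PBS mice and 469, 122 and 360.0 CPM in WT BLM mice. It was at 181, 730.2 and 518 CPM in KO PBS mice and 335, 399 and 229 CPM in KO BLM mice. KO PBS mice 137 and 139 were the highest of the 12 mice, and the log2 fold change was 1.05 ± 0.55 (SE), adjusted p = 0.157 in WT and -0.57 ± 0.55 (SE), adjusted p = 0.578 in KO mice. The summed Lce1 level was 552 ± 212 CPM (WT PBS), 1843 ± 1011 CPM (WT BLM), 1217 ± 690.4 CPM (KO PBS) and 2301 ± 894 CPM (KO BLM), as mean ± SD with n = 3. The sum rose in WT mice (log2 fold change 1.74 ± 0.60 (SE), edgeR adjusted p = 0.0466) and had an adjusted p of 0.393 in KO mice.

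Lce6a lies beside the Lce1 genes and was the only Lce6 gene in the file. It was at 7.37, 8.45 and 14 CPM in WT PBS mice and 33.7, 10.9 and 44.6 CPM in WT BLM mice. It was at 7.88, 16.4 and 13.6 CPM in KO PBS mice and 20.2, 59.8 and 41.4 CPM in KO BLM mice. WT BLM mouse 146 lay inside the WT PBS range while all KO BLM mice were above the KO PBS mice. The gene rose in WT mice (log2 fold change 1.58 ± 0.54 (SE), adjusted p = 0.0450) and had adjusted p = 0.159 in KO mice, at a log2 fold change of 1.68.

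Loricrin (Lor) is the main protein of the envelope by mass and involucrin (Ivl) one of its first scaffold proteins. Lor (chr3:92080271-92083142) was at 564, 628 and 765 CPM in WT PBS mice and 2343, 717 and 2783 CPM in WT BLM mice. It was at 591, 2312 and 1523 CPM in KO PBS mice and 1352, 3428 and 3612 CPM in KO BLM mice. WT BLM mouse 146 was within the WT PBS range, and KO PBS mouse 136 was at the level of WT PBS mice while KO PBS mouse 137 reached that of WT BLM mice. Neither comparison was called (log2 fold change 1.58 ± 0.59 (SE), adjusted p = 0.0614 in WT and 0.92 ± 0.58 (SE), adjusted p = 0.387 in KO mice). Per length Lor was at 367 CPM per kb in WT PBS and 1573 in KO BLM skin, where it was above Sprr1a (1433) as the highest of the members.

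Ivl was at 218, 346 and 216 CPM in WT PBS mice and 179, 95 and 225 CPM in WT BLM mice. It was at 386, 106 and 121 CPM in KO PBS mice and 207, 324 and 336 CPM in KO BLM mice. The groups overlapped and log2 fold changes were -0.64 ± 0.49 (SE), adjusted p = 0.318 in WT and 0.50 ± 0.49 (SE), adjusted p = 0.582 in KO mice, the latter 1.35 (adjusted p = 0.0418) without KO PBS mouse 136, with adjusted p from 0.0240 to 0.864 over 21 alternatives. Kprp, a proline-rich keratinocyte protein, was at 102, 185 and 206 CPM in WT PBS mice and 475, 179.8 and 515 CPM in WT BLM mice. It was at 205, 382 and 344 CPM in KO PBS mice and 279, 539 and 374 CPM in KO BLM mice. It rose in WT mice although mouse 146 was inside the WT PBS range (log2 fold change 1.25 ± 0.43 (SE), adjusted p = 0.0475), and was at 0.36 ± 0.43 (SE), adjusted p = 0.652 in KO mice. Crct1 had log2 fold changes of -0.57 (adjusted p = 0.250) in WT and 0.34 (adjusted p = 0.623) in KO mice.

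The S100-fused genes encode large proteins of the granular layer that carry a calcium-binding start and long repeats, with filaggrin (Flg) bundling keratin and giving rise to the natural moisturizing factor. Flg (chr3:93273523-93293686) was at 183, 149.9 and 176 CPM in WT PBS mice and 457, 361 and 844 CPM in WT BLM mice. It was at 64.9, 128 and 93.3 CPM in KO PBS mice and 298, 1127 and 1463 CPM in KO BLM mice. Both pairs of groups were separate, KO PBS mice had the lowest levels of all groups and KO BLM mice 143 and 144 the highest. Flg rose in both genotypes, by a log2 fold change of 1.71 ± 0.52 (SE), adjusted p = 0.0316 in WT and 3.34 ± 0.55 (SE), adjusted p = 0.0454 in KO mice. The KO call held in 8 of 21 alternatives, with adjusted p from 5.91e-08 to 0.300, and the difference between the responses was 1.63 ± 0.72 (SE), adjusted p = 0.154.

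Hornerin (Hrnr) also rose in WT mice (log2 fold change 2.25 ± 0.71 (SE), adjusted p = 0.0359) and was at 1.70 ± 0.70 (SE), adjusted p = 0.215 in KO mice. It was at 37.7, 40.9 and 74.9 CPM in WT PBS mice and 267, 99.1 and 363 CPM in WT BLM mice. The KO mice had 21.8, 136 and 93.8 CPM in KO PBS mice and 104, 379 and 336 CPM in KO BLM mice. WT BLM mouse 146 was the lowest of its group and KO BLM mouse 141 lay between KO PBS mice. Rptn, the gene of repetin, was not called at log2 fold changes of 2.39 ± 0.92 (SE), adjusted p = 0.0659 in WT and 2.23 ± 0.91 (SE), adjusted p = 0.214 in KO mice, although WT groups did not overlap. Flg2 had log2 fold changes of 0.67 (adjusted p = 0.272) in WT and -0.49 (adjusted p = 0.570) in KO mice.

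Cornulin (Crnn, chr3:93144787-93149819) differed from the other members of its group. Crnn was at 772, 984 and 709 CPM in WT PBS mice and 1.25, 13.1 and 4.86 CPM in WT BLM mice. It was at 1268, 0.0286 and 2.71 CPM in KO PBS mice and 517, 35.4 and 71.2 CPM in KO BLM mice. The 5 mice over 500 CPM were the 3 WT PBS mice, KO PBS mouse 136 and KO BLM mouse 141, which are also the 5 mice with the highest hair level. Crnn had a log2 fold change of -7.00 ± 2.62 (SE), adjusted p = 0.0605 in WT mice, where the groups did not overlap, and -1.03 ± 2.03 (SE), adjusted p = 0.802 in KO mice. Without KO PBS mouse 136 the WT value was -7.00 (adjusted p = 0.00378) and the KO value turned to 7.25 (adjusted p = 0.0314), and the adjusted p ran from 0.000899 to 0.443 over 20 alternatives in WT and from 0.0245 to 0.943 over 20 alternatives in KO mice.

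**Figure D4:**
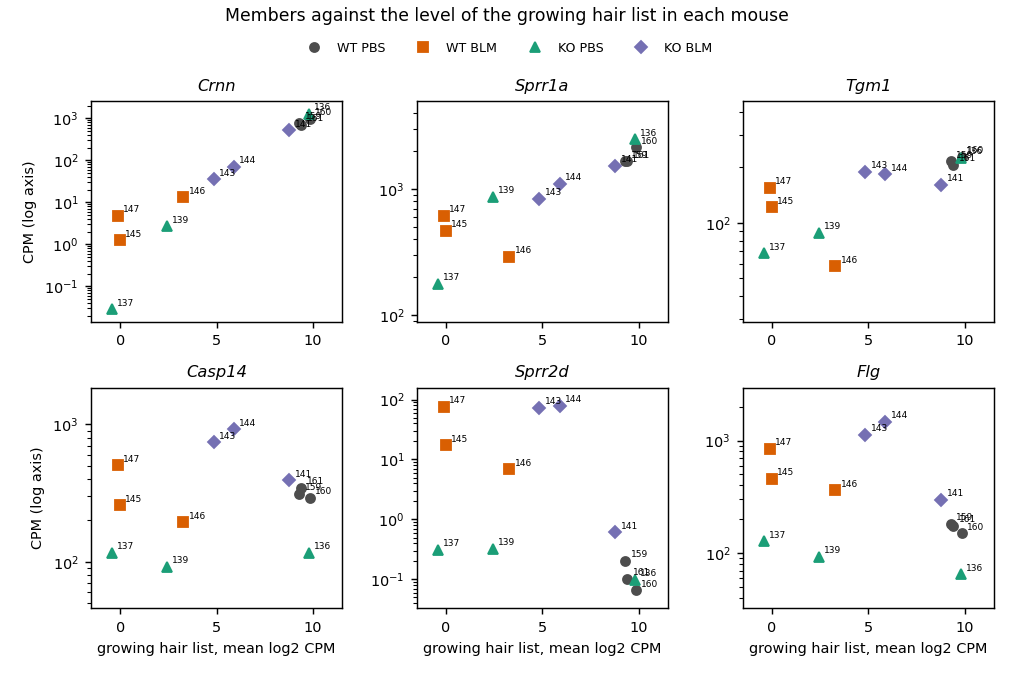
Each panel plots 1 member (y axis, CPM on a log scale) against the mean log2 CPM of the growing hair list (x axis) in the 12 mice, whose numbers stand beside the symbols. Crnn and Sprr1a are highest in the 5 mice with a hair level over 8, and Casp14 is at 91.6 to 117 CPM in the 3 KO PBS mice at any hair level. Sprr2d is under 1 CPM in all PBS mice and also in KO BLM mouse 141 (0.612 CPM), the bleomycin mouse with the highest hair level (8.77). The part of hair in these levels was not tested.

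Of the 4 genes for enzymes and adhesion, 1 was called, Casp14 in KO mice. Caspase-14 (Casp14, chr10:78711991-78718294) is a protease of the granular layer that helps to break filaggrin down. Casp14 was at 313, 291 and 344 CPM in WT PBS mice and 258, 193 and 505 CPM in WT BLM mice. It was at 116, 117 and 91.6 CPM in KO PBS mice and 392, 738 and 919 CPM in KO BLM mice. The 3 KO PBS mice, mouse 136 with its high hair level included, were the lowest of all 12, while WT BLM mice overlapped with WT PBS mice. Casp14 rose in KO mice (log2 fold change 2.66 ± 0.39 (SE), adjusted p = 0.0341) and not in WT mice (0.01 ± 0.36 (SE), adjusted p = 0.981). The KO call held in 12 of 21 alternatives, with adjusted p from 4.12e-09 to 0.271 and log2 fold changes from 2.39 to 2.99.

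Casp14 was also the member with the smallest adjusted p in both tests that compare genotypes without bleomycin or compare the responses. The same held between KO BLM and WT BLM, where the groups overlapped (log2 difference 1.10 ± 0.37 (SE), adjusted p = 0.250). Its log2 difference between KO PBS and WT PBS was -1.55 ± 0.37 (SE), adjusted p = 0.194, without overlap, and the difference between responses was 2.65 ± 0.52 (SE), adjusted p = 0.0702. With DESeq2 these were -1.55 (adjusted p = 0.00676) and 2.65 (adjusted p = 0.000198). Without KO PBS mouse 136 edgeR gave -1.60 (adjusted p = 0.0188) and 2.70 (adjusted p = 0.00542). Over all alternatives the adjusted p ran from 0.00676 to 0.689 for the PBS difference, past the threshold in 3 of 21, and from 0.000198 to 0.464 for the difference of responses, in 3 of 20.

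Asprv1, the protease gene that also acts on filaggrin, was at 487, 851 and 666 CPM in WT PBS mice and 1362, 618 and 1999 CPM in WT BLM mice. It was at 753, 777 and 1001 CPM in KO PBS mice and 895, 2413 and 2462 CPM in KO BLM mice. The bleomycin groups each held 1 mouse in the range of their controls, and neither comparison was called (log2 fold change 0.99 ± 0.46 (SE), adjusted p = 0.115 in WT and 1.19 ± 0.46 (SE), adjusted p = 0.197 in KO mice). Tgm1, the transglutaminase that crosslinks the envelope, was at 216, 228 and 206 CPM in WT PBS mice and 121, 58.1 and 155 CPM in WT BLM mice. It was at 225, 68.4 and 88.2 CPM in KO PBS mice and 161, 189.7 and 183 CPM in KO BLM mice. All WT BLM mice were under the WT PBS mice, and KO PBS mouse 136 was with the WT PBS mice, far above the other 2 of its group. The log2 fold change of Tgm1 was -0.96 ± 0.43 (SE), adjusted p = 0.103 in WT and 0.49 ± 0.43 (SE), adjusted p = 0.537 in KO mice. It was, with KO PBS mouse 136 left out, -0.96 (adjusted p = 0.0201) in WT and 1.18 (adjusted p = 0.0426) in KO mice, and the adjusted p ran from 0.0201 to 0.995 over 21 alternatives and from 0.0388 to 0.841 over 21 alternatives. Cdsn was at 1019, 1448 and 1141 CPM in WT PBS mice and 841, 338 and 1021 CPM in WT BLM mice. It was at 1484, 563 and 779 CPM in KO PBS mice and 1122, 1000.0 and 1147 CPM in KO BLM mice. WT BLM mouse 146 was the lowest of the 12 mice, and the groups overlapped (adjusted p = 0.201 and adjusted p = 0.803).

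The genotypes were then compared within each treatment, which asks whether the loss of Thy-1 goes with another level of these genes. Between KO PBS and WT PBS no member was called (0 of 48), against 0.0655% of all genes, with 2 members at an unadjusted p under 0.05 (20.4% of all genes). Both groups were fully separate for Sprr2a3, which was higher in KO PBS, and for Casp14, Flg, Sprr2b and Sprr2j-ps, which were lower, against 18.9% of all genes. Of these, Sprr2j-ps had 0 counts in KO PBS against 4 in WT PBS, and Sprr2b 0 against 16. With 3 counts allowed over the KO PBS group, WT PBS was at least 1.33-fold and 5.30-fold higher. The median log2 difference was 0.40 over the members, 0.24 to 0.53 with single mice left out, and 0.017 over all genes. It turned to -0.63 with the hair level and to -0.62 with the basal keratinocyte level as a covariate. Without KO PBS mouse 136 there were 12 members called, with 36.7% of all genes: Lor, Lce1a2, Lce1l, Lce1m and Flg2 higher and Sprr2h, Sprr1b, Sprr1a, Ivl, Crnn, Casp14 and Tgm1 lower in KO PBS. DESeq2 called Casp14 alone.

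Between KO BLM and WT BLM no member was called (0 of 48), against 0.0928% of all genes. At an unadjusted p under 0.05 there was 1 member, Casp14, against 16.6% of all genes. None of the alternatives called any, DESeq2 included. The median log2 difference was 0.30, with 37 members above 0, and it was -0.13 without WT BLM mouse 146 and 1.16 without WT BLM mouse 147. With the hair level as a covariate it was 1.56, with 0 members called and 26 at an unadjusted p under 0.05. The share of all genes in that fit is not given here, so the 26 cannot be set against the 16.6% of the main fit. Values were fully separate for Crnn, Sprr1a, Sprr4, Tgm1 and Crct1, each higher in KO BLM, against 27.5% of all genes. For the Sprr2 genes the log2 differences lay between -1.26 and 0.75, and for the Lce1 genes between 0.02 and 0.68. Summed over all members, the level was 6554, 8769.9 and 7728 CPM (WT PBS), 10191, 4326 and 14026 CPM (WT BLM), 9134, 7536 and 7616 CPM (KO PBS) and 9057, 15924 and 16804 CPM (KO BLM). WT BLM mouse 146 had the lowest sum of all and KO BLM mouse 144 the highest.

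The members were also set out in their order along chromosome 3. From Lor at the start to Rptn at the end, 80 genes of the file lie in the region, of which 35 are no members and 9 of these were tested. Of the 9, 1 rose and 2 fell in WT BLM mice and 0 were called in KO mice. The Sprr2 run from Sprr2a1 to Sprr2k is followed by Sprr1b, Sprr3 and Sprr1a, and the WT log2 fold changes were 2.23 for Sprr1b and -2.00 for Sprr1a. The 13 Lce1 genes that rose stand together, broken only by Kprp among the members, and are followed by the Lce3 run. Crnn, at -7.00, stands between Lce1m (1.05) and Flg2 (0.67).

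**Figure D5:**
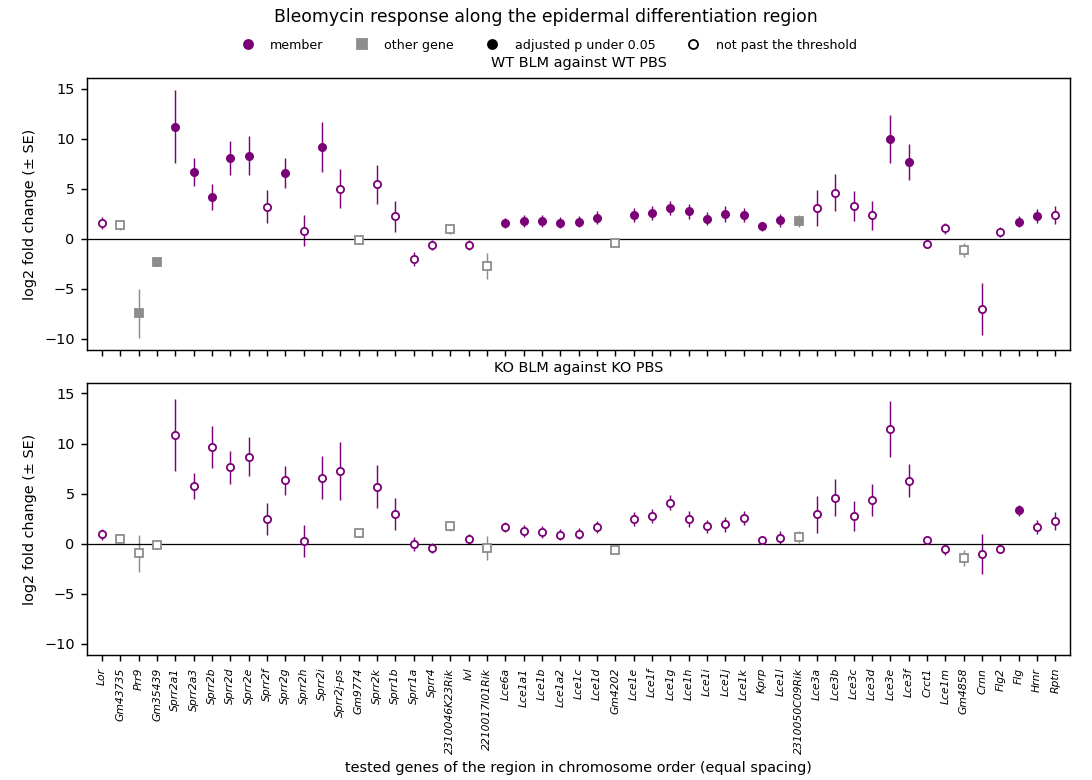
Log2 fold changes (y axis, ± SE) of the tested genes of the region in chromosome order (x axis, equal spacing), for WT mice above and KO mice below, with members as circles, other genes as squares and filled symbols for an adjusted p under 0.05. The upper panel shows the Sprr2 and Lce3 peaks, the low plateau of the Lce1 genes and the drop at Crnn, and Flg is the filled symbol of the lower panel.

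Other genes of cornification were described as lists chosen by role, with log2 fold changes in parentheses. Of 8 scaffold genes outside the rule (Evpl, Ppl, Dsp and others) 2 rose and 1 fell in WT BLM mice, where 19.8% of all genes rose and 14.1% fell, at a median log2 fold change of -0.35. S100a11 (0.88 ± 0.29 (SE), adjusted p = 0.0405) and S100a10 (0.57 ± 0.19 (SE), adjusted p = 0.0428) rose, and Pkp3, a desmosome plaque gene, fell (-1.10 ± 0.38 (SE), adjusted p = 0.0480). Of 16 crosslinking and processing enzymes 0 rose and 1 fell, and of 13 barrier lipid genes 0 rose and 1 fell, at medians of -0.037 and 0.082. The enzyme gene was St14, which encodes the membrane protease matriptase (-2.07 ± 0.48 (SE), adjusted p = 0.0126), and the lipid gene Slc27a4, a fatty acid transporter (-0.76 ± 0.23 (SE), adjusted p = 0.0332). Of 20 regulators of differentiation 3 rose and 7 fell, at a median of -0.39, with 0.018 over all genes. The regulators that rose were Fosl1 (1.80 ± 0.63 (SE), adjusted p = 0.0484), Ahr (1.14 ± 0.25 (SE), adjusted p = 0.0114) and Nfe2l2 (0.57 ± 0.15 (SE), adjusted p = 0.0201). Among those that fell, the largest log2 fold changes were in Ovol1 (-1.61 ± 0.49 (SE), adjusted p = 0.0312), Tfap2a (-1.34 ± 0.33 (SE), adjusted p = 0.0154) and Grhl1 (-1.25 ± 0.35 (SE), adjusted p = 0.0254). In KO mice, where 0.306% of all genes were called, the only one of these 4 lists was Elf3, an epithelial transcription factor (3.48 ± 0.56 (SE), adjusted p = 0.0454).

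Keratins mark the layers of the epidermis. Krt1 and Krt10 are keratins of the suprabasal layers, and Krt6a, Krt6b and Krt16 those of stressed or wounded epidermis. In WT BLM mice Krt6b rose by 10.42 ± 2.18 (SE), adjusted p = 0.00936 on the log2 scale, Krt16 by 4.31 ± 1.30 (SE), adjusted p = 0.0303 and Krt1 by 3.37 ± 0.87 (SE), adjusted p = 0.0183. Krt10 (1.78 ± 0.64 (SE), adjusted p = 0.0523) and Krt6a (0.60 ± 0.76 (SE), adjusted p = 0.555) were not called, nor were the basal keratins Krt5 (0.26 ± 0.32 (SE), adjusted p = 0.550) and Krt14 (0.94 ± 0.47 (SE), adjusted p = 0.141). Of the 10 basal keratinocyte markers, however, 4 rose and 1 fell in WT BLM mice, at a median log2 fold change of 0.61. Of the 11 suprabasal markers 2 rose and 0 fell, at a median of 0.94. Over all genes 19.8% rose and 14.1% fell. In KO mice none of the 7 was called, with 8.50 ± 1.99 (SE), adjusted p = 0.0957 for Krt6b and 3.36 ± 1.24 (SE), adjusted p = 0.180 for Krt16. Of the 9 genes of the stress keratinocyte list, 3 rose and 1 fell in WT BLM mice, where 19.8% of all genes rose and 14.1% fell. Their WT log2 fold changes ran from -2.74 to 10.42, so the list did not move as a whole. The mean log2 CPM of this list was 5.86, 6.23 and 5.83 (WT PBS), 6.92, 6.79 and 9.03 (WT BLM), 7.03, 3.93 and 5.01 (KO PBS) and 5.89, 8.71 and 9.15 (KO BLM). The same 3 mice that were highest in Sprr2d, mice 147, 143 and 144, were highest in this list, and its part in the members' values was not tested.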

How the data were processed

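Skin RNA was sequenced from 12 mice, 3 per group, and the authors deposited 1 table of raw read counts per gene for stranded mRNA libraries. The submitters' processing notes name GRCm38.p6 and MultiQC 1.7, and the aligner and counter are not given in the sources used here. The counts were taken as deposited, genes were filtered with filterByExpr and scaled by TMM, and a model of 4 group means was tested with edgeR 4.0.16 (quasi-likelihood F test, Benjamini-Hochberg adjustment over 18311 genes, threshold 0.05) in R 4.3.3. All mice enter 1 estimate of the spread. The SE given with a log2 fold change is its absolute value divided by the square root of the F value of its test. It was not estimated separately. DESeq2 1.42.0 (the authors used an earlier version), other scalings and filters, covariates, summed copies and leaving out mice were alternatives. Totals of 26473700 to 38890450 counts set the counting error, and intervals and floors of 3 counts cover that error only. Shared sequence was counted on GENCODE M21 transcripts. The script was tested on simulated data.

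The members and lists were chosen with earlier results of these data known. Values per mouse are given for the 2 members of each family with the highest mean CPM, the 12 called members with the largest WT log2 fold change, and Ivl, Lor, Flg and Tgm1. Of related lists, called genes are named, up to 3 in each direction. Casp14, Hrnr, Flg2, Rptn and Crct1 are members that this choice leaves out. They are named because a count or comparison turns on them, chosen after their values were seen. Further members outside this choice, such as Sprr2f and Lce3a, are named to account for their families. The labels do not say whether mice shared a litter or cage, so it is not known whether the mice of a group are independent. The p values treat them as independent and rest on a spread estimated over all groups together. All libraries correlated within their group at 0.872 to 0.989 and no columns were identical.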

Additional observations from a re-analysis of the deposited data

How the results depend on the processing

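The counts of called members rest on few mice, and a count of 26 in WT mice or 2 in Thy-1–KO mice moved with single libraries. With single mice left out, the members called ran from 3 to 30 for bleomycin in WT mice, from 0 to 15 for bleomycin in KO mice, from 0 to 12 between KO PBS and WT PBS, and from 0 to 9 for the difference of the responses, and stayed at 0 between KO BLM and WT BLM. The highest value each time came without KO PBS mouse 136, and the lowest WT value without WT PBS mouse 159 or 160. With the growing hair list as a covariate the counts were 0 in WT and 27 in KO mice, with the basal keratinocyte list 6 and 5, and with the Sprr2, Lce1 and Lce3 families each summed, an alternative chosen after seeing the data, the WT count was 5 of 20 rows. In KO mice RLE and upper-quartile scaling each gave 1, no filter on low counts 7, a fit of the KO groups alone 0 (16 at an unadjusted p under 0.05) and DESeq2 17. Without mice 136 and 141 the counts were 25 for KO bleomycin, 15 between the PBS groups and 10 for the difference of responses, and DESeq2 gave 1 for each of the last 2. Where the share of all genes called is not given for a fit, its count of members cannot be set against that share. The cause of these shifts was not tested.

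With the hair covariate the WT log2 fold changes of Sprr2a1 (-8.48), Sprr2b (-4.95), Sprr2e (-1.55), Sprr2i (-0.88), Lce1a1 (-0.57), Lce3e (-0.12) and Lce6a (-0.037) turned negative. None of these was called, with edgeR adjusted p from 0.477 (Sprr2b) to 0.996 (Lce3e). Since hair level and bleomycin go together in WT mice, these values are poorly determined and show no reversal. The KO value of Crnn ran from -2.94 to 7.25 with single mice left out and was 5.29 without mice 136 and 141. For Sprr2h the PBS difference ran from -4.23 to 1.97 and was -4.23 without both mice, and the difference of responses ran from -1.28 to 4.90 and was 5.40. No paired analysis was possible because every mouse has a number of its own. Depth limits Sprr3, Sprr2a1, Sprr2e, Sprr2k and Lce3e, with 0 to 3 counts in both PBS groups, Sprr2i in WT PBS, and Sprr2b and Sprr2j-ps in KO PBS.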
